A study of Mus musculus with 9 samples.

Results

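MAPK phosphatases and feedback genes are described here in RAW264.7 cells, a mouse macrophage-like leukemia line, at the level of their transcripts. The 9 genes were taken by name and comprise 7 dual-specificity phosphatases (Dusp1, Dusp2, Dusp4, Dusp5, Dusp6, Dusp10 and Dusp16), Spred1 and Map3k8. All 9 were found among the 28137 rows of the deposited table, of which 27533 carry a gene symbol in GENCODE M21. RNA-seq was performed on 9 libraries, with 3 from cells given control siRNA (defined as NC), 3 from cells given SFRP2 siRNA and 3 from cells given RAB6A siRNA. Per the labels, the cells of all 3 groups received 60 nM siRNA for 6 h, lipopolysaccharide (LPS) at 100 ng/ml was added 12 h after the change of medium, and RNA was taken after 24 h of polarization. The title of each sample also ends in 6H, and it does not say which step this names. The methods of the study name interferon gamma beside LPS, another lipofection reagent, another siRNA dose and another medium, and the labels name none of these. No library of unstimulated cells was part of the comparisons, so that every value below belongs to LPS-treated cells. The study describes its data in general as representative of at least 3 independent experiments, without naming these libraries. Neither the labels nor the methods say whether the replicates were separate cultures, or whether the 3 SFRP2 siRNA libraries received different siRNAs, so that p-values measure the spread between these libraries, which may be technical.

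In macrophages, LPS binds TLR4 and switches on the MAP kinases ERK, JNK and p38, which are active only while both a threonine and a tyrosine of their activation loop carry phosphate. Dual-specificity phosphatases remove both phosphates, and several of their genes are themselves induced by MAP kinase activity, so that the pathway builds its own brake. They differ in location and substrate, since some act in the nucleus and some in the cytoplasm, and some prefer ERK while others prefer JNK and p38. Spred1 works further upstream and keeps RAS from activating RAF, and Map3k8 (TPL2) is the kinase that carries the TLR4 signal to MEK and ERK.

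The promoter sequences of Dusp1, Dusp5, Dusp10 and Dusp6 are shown because the transcripts of the first 3 rose in the RAB6A siRNA libraries and that of Dusp6 fell most. Each runs from 250 bases before to 50 bases after the transcription start in RefSeq (GRCm38.p6), 5′ to 3′ on the strand of the gene. Capitals mark matches, on either strand, to a cAMP response element (CRE, TGACGTCA), an AP-1 site (TGACTCA), an E-box (CACGTG), the kappa-B consensus or the CArG box consensus. The windows are chr17:26508423-26508722 on the minus strand for Dusp1, and on the plus strand chr19:53528895-53529194 for Dusp5, chr1:184034131-184034430 for Dusp10 and chr10:99262981-99263280 for Dusp6.
Dusp1: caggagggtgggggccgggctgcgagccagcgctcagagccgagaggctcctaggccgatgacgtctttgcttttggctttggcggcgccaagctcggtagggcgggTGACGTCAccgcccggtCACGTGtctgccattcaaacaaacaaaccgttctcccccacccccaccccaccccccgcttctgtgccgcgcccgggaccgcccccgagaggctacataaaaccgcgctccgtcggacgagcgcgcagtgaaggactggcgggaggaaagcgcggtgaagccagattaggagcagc
Dusp5: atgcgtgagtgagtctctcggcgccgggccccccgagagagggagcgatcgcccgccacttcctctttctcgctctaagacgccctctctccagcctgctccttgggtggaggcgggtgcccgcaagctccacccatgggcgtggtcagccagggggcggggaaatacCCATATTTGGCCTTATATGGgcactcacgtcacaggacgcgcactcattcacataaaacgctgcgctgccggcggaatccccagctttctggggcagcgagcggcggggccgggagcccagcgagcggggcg
Dusp10: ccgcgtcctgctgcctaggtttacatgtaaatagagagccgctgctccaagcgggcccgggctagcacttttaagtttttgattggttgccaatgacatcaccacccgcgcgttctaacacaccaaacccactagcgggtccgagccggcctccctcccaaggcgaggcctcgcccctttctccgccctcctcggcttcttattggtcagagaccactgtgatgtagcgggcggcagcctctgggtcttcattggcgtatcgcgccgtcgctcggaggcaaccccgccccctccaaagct
Dusp6: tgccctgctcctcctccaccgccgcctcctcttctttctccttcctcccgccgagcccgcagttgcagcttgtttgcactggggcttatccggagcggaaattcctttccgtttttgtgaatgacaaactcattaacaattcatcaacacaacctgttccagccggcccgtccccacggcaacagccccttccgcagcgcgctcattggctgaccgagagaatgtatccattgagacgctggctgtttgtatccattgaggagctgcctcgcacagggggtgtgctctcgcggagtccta

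A promoter was found in the table for 7 of the 9 genes, the exceptions being Dusp4 and Map3k8. In Dusp1, a CRE lay at bases -143 to -136 from the start and an E-box at -126 to -121. In Dusp5, a pair of CArG boxes, the sequence bound by serum response factor, stood side by side at -82 to -73 and -72 to -63. In Dusp2, an E-box lay at -109 to -104. Dusp6, Dusp10, Dusp16 and Spred1 held no match to the 5 motifs in this window. Among 32851 promoters of the same length, 1.79% held the CRE, 5.2% the AP-1 site, 7.15% the E-box, 4.51% the kappa-B consensus and 1.63% the CArG box. No match overlapped another. These matches describe the letters of the window and are not measured binding. The windows of Dusp1 and Dusp10 lie inside the spans that GENCODE M21 gives these genes, and not at the 5′ ends of those spans.

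The libraries held 32758729 to 47149258 reads, as recovered from the deposited FPKM (fragments scaled to exon length and library size, a level that can be compared between genes of different length). Among the 9 genes, the lowest number of reads in any library was 246 (Dusp10), so that none of the values below rests on a few reads. The targeted genes were examined first. Sfrp2 had 2 reads in each NC library, 4, 4 and 2 in the SFRP2 siRNA libraries and 3 to 4 in the RAB6A siRNA libraries, which is too few to check the label (exact two-sided permutation test against NC, p = 0.1, the smallest possible with 3 libraries against 3). Rab6a was 25.7 ± 1.48 FPKM in NC and 20.7 ± 0.445 in RAB6A siRNA (SD, n = 3), a log2 fold change of -0.31 (limma, adjusted p = 0.0024). Over the 12712 genes tested in that comparison, the median absolute log2 fold change was 0.63, and 36.5% were lower at an adjusted p under 0.05. The fall of Rab6a thus does not stand out from that of other genes. Of 10 macrophage markers, 9 had a mean of at least 0.5 FPKM in each group, and their summed level ranged from 4580.0 to 5050.0 FPKM in NC, 4050.0 to 4380.0 in SFRP2 siRNA and 3980.0 to 4140.0 in RAB6A siRNA. Markers of other cell types summed to at most 3.29 FPKM in any library.

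With RAB6A siRNA, 6 of the 9 genes changed against NC, 3 upward (Dusp1, Dusp10 and Dusp5) and 3 downward (Dusp6, Spred1 and Dusp2). Dusp1 rose 2.97-fold and Dusp10 2.67-fold, while Dusp6 fell to 0.455 of its NC level. Dusp4, Dusp16 and Map3k8 did not pass the test. In this comparison, 37.6% of the 12712 genes tested were higher and 36.5% lower at an adjusted p under 0.05, so that a change in 6 of 9 genes is near the share of all genes. At an absolute log2 fold change over 1 as well, the rule that the study used for differentially expressed genes, Dusp1 and Dusp10 were higher and Dusp6 lower, against 17.3% of all genes higher and 12.8% lower. With SFRP2 siRNA, 0 of the 9 genes passed the adjusted test against NC.

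**Figure D1:**
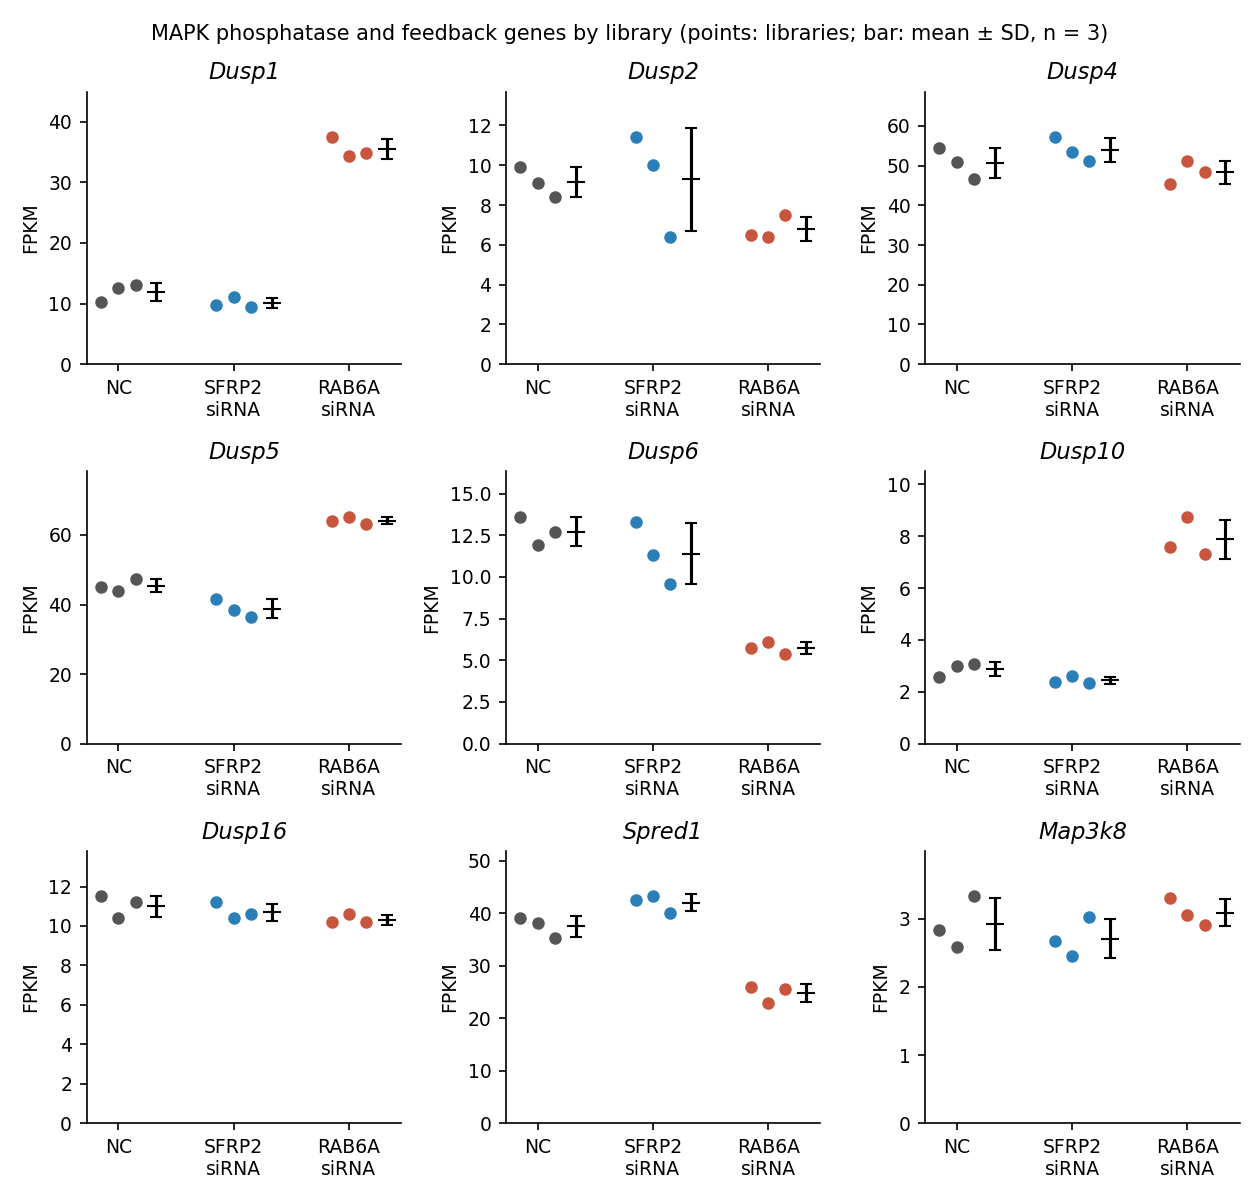
FPKM of the 9 genes (y axis, from 0, with its own scale in each panel) in the 3 libraries of each group (x axis); points are libraries and the black bar is the mean ± SD (n = 3). The RAB6A siRNA libraries lie apart from both other groups in the panels of Dusp1, Dusp5, Dusp6, Dusp10 and Spred1, and the groups overlap in those of Dusp4, Dusp16 and Map3k8.

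Dusp1 encodes a nuclear phosphatase of p38, JNK and ERK that is induced early after LPS and limits the cytokine response of macrophages. It lies on chromosome 17 from 26505590 to 26562128 on the minus strand (GRCm38). It was at 10.2, 12.6 and 13.0 FPKM in the NC libraries, 9.75, 11.0 and 9.44 in the SFRP2 siRNA libraries and 37.4, 34.3 and 34.8 in the RAB6A siRNA libraries. Each RAB6A siRNA library was above each of the other 6, while the NC and SFRP2 siRNA libraries overlapped. The log2 fold change of RAB6A siRNA against NC was 1.57 (SE 0.1, 95% interval 1.34 to 1.8, limma adjusted p = 7.1e-06). Its size exceeded that of 85.2% of all genes tested. Dusp1 shares 11 exon bases with Ergic1 on the opposite strand, and it is not stated whether counting used the strand.

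Dusp2 encodes a nuclear phosphatase found mainly in immune cells. It starts at base 127336159 of chromosome 2 and ends at 127338376. Its values were 9.92, 9.12 and 8.4 FPKM in NC, 11.4, 10.0 and 6.39 in SFRP2 siRNA and 6.5, 6.4 and 7.51 in RAB6A siRNA. RAB6A siRNA and NC did not overlap, whereas the third SFRP2 siRNA library lay below all RAB6A siRNA libraries and the other 2 above all NC libraries. Dusp2 fell by 0.42 on the log2 scale in RAB6A siRNA against NC (SE 0.09, limma adjusted p = 0.00391). This call was lost when all 9 libraries shared one estimate of the spread (adjusted p = 0.0627), a fit that includes the wide SFRP2 siRNA group.

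Dusp4, a nuclear phosphatase of ERK and JNK, had the highest level of the 9 genes in NC and in SFRP2 siRNA. NC libraries held 54.3, 50.9 and 46.7 FPKM, SFRP2 siRNA libraries 57.1, 53.5 and 51.1, and RAB6A siRNA libraries 45.4, 51.2 and 48.3. The RAB6A siRNA range overlapped both others. The log2 fold change of RAB6A siRNA against NC was -0.07 with a 95% interval from -0.24 to 0.11 (limma adjusted p = 0.439).

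Dusp5 encodes a nuclear phosphatase that is specific to ERK, and it carries the paired CArG boxes shown above. The gene spans bases 53529109 to 53542431 of chromosome 19 on the plus strand. Levels were 44.9, 43.9 and 47.4 FPKM in NC, 41.7, 38.4 and 36.3 in SFRP2 siRNA and 63.9, 65.2 and 63.2 in RAB6A siRNA. The 3 groups did not overlap, with SFRP2 siRNA lowest and RAB6A siRNA highest. Dusp5 rose by a log2 fold change of 0.5 in RAB6A siRNA against NC (SE 0.05, limma adjusted p = 9.2e-05). An antisense transcript shares 547 of its exon bases and was read at a mean of 0.063 FPKM over the 9 libraries.

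Dusp6, the cytoplasmic phosphatase of ERK, lies on chromosome 10 from 99263231 to 99267489 and is widely read as an ERK output gene. Its 3 NC libraries held 13.6, 11.9 and 12.7 FPKM, the SFRP2 siRNA libraries 13.3, 11.3 and 9.57, and the RAB6A siRNA libraries 5.74, 6.08 and 5.39. Each RAB6A siRNA value was below all others, and NC and SFRP2 siRNA overlapped. Dusp6 fell by 1.13 on the log2 scale in RAB6A siRNA against NC (SE 0.08, 95% interval -1.31 to -0.95, limma adjusted p = 1.0e-05). Dusp5 and Dusp6 thus moved in opposite directions in the same libraries, while the nuclear Dusp2 fell and the nuclear Dusp4 did not pass the test. The ratio of Dusp5 to Dusp6 was 3.31, 3.71 and 3.73 in NC, 3.14, 3.38 and 3.79 in SFRP2 siRNA and 11.1, 10.7 and 11.7 in RAB6A siRNA, given without a test.

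Dusp10 and Dusp16 encode phosphatases that act on JNK and p38 rather than on ERK. Dusp10 (chromosome 1, 184013302 to 184075636) was at 2.58, 3.0 and 3.08 FPKM in NC, 2.38, 2.6 and 2.33 in SFRP2 siRNA and 7.58, 8.75 and 7.32 in RAB6A siRNA. RAB6A siRNA libraries were above all others, and the first NC library lay below the highest SFRP2 siRNA library. Dusp10 rose by a log2 fold change of 1.42 in RAB6A siRNA against NC (SE 0.1, 95% interval 1.18 to 1.66, limma adjusted p = 1.3e-05). Dusp16 held 11.5, 10.4 and 11.2 FPKM in NC, 11.2, 10.4 and 10.6 in SFRP2 siRNA and 10.2, 10.6 and 10.2 in RAB6A siRNA. Its groups overlapped, and its log2 fold change of RAB6A siRNA against NC was -0.09 (95% interval -0.24 to 0.05, limma adjusted p = 0.205). Dusp10 was at 0.262 ± 0.0335 of the level of Dusp16 in NC and at 0.762 ± 0.0563 in RAB6A siRNA (SD, n = 3).

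Spred1, which recruits neurofibromin to the membrane and thereby lowers active RAS, also fell. It spans bases 117121374 to 117182279 of chromosome 2. Values were 39.1, 38.1 and 35.3 FPKM in NC, 42.5, 43.2 and 40.1 in SFRP2 siRNA and 25.9, 22.9 and 25.6 in RAB6A siRNA. The 3 groups did not overlap, and here SFRP2 siRNA was highest. The log2 fold change of RAB6A siRNA against NC was -0.59 (SE 0.07, limma adjusted p = 1.6e-04).

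Map3k8 was at 2.83, 2.59 and 3.33 FPKM in NC, 2.67, 2.45 and 3.02 in SFRP2 siRNA and 3.3, 3.05 and 2.91 in RAB6A siRNA. All 3 groups overlapped. Its log2 fold change of RAB6A siRNA against NC was 0.09 (95% interval -0.18 to 0.35, limma adjusted p = 0.508).

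**Figure D2:**
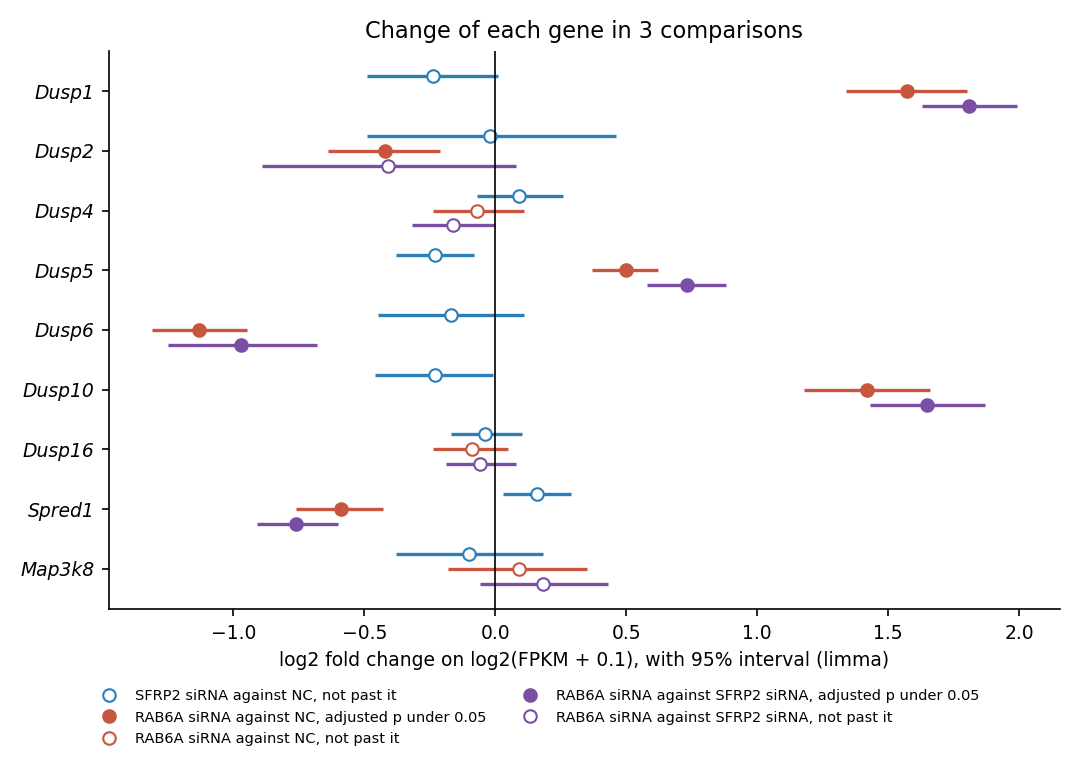
Log2 fold change of each gene (x axis, on log2(FPKM + 0.1), with the 95% interval as a line) in 3 comparisons (colours); filled points have an adjusted p under 0.05. Intervals of RAB6A siRNA against NC lie wholly above 0 for Dusp1, Dusp5 and Dusp10 and wholly below 0 for Dusp2, Dusp6 and Spred1, and no point of SFRP2 siRNA against NC is filled.

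SFRP2 siRNA against NC gave smaller differences. Over all 12017 genes tested, 0% passed an adjusted p under 0.05 with limma (smallest adjusted p 0.14), 2220 had an unadjusted p under 0.05, and voom on the recovered reads called 42 genes, 0 of the 9 among them. Dusp5 did not pass, with a log2 fold change of -0.23 (95% interval -0.38 to -0.08, unadjusted p = 0.00783, limma adjusted p = 0.18), and Dusp10 had the same size (unadjusted p = 0.0448, limma adjusted p = 0.261). Spred1 stood at 0.16 (95% interval 0.03 to 0.29, unadjusted p = 0.0215, limma adjusted p = 0.211). At an unadjusted p under 0.05, 10.7% of all genes were lower and 7.73% higher, beside which the members stand at 2 lower and 1 higher of 9. Groups did not overlap for Dusp5, as for 13.9% of all genes in the lower direction, and for Spred1, as for 10.9% in the higher direction.

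The other 6 genes had log2 fold changes between -0.24 (Dusp1, 95% interval -0.49 to 0.01) and 0.09 (Dusp4, -0.07 to 0.26). The interval of Dusp2 was the widest, from -0.49 to 0.46, and its SFRP2 siRNA libraries had a coefficient of variation of 28.0%, against 8.35% in NC. Without the third SFRP2 siRNA library its value turned from -0.02 to 0.23, and without the first NC library to 0.04. That SFRP2 siRNA library was the lowest of its group for 7 of the 9 genes and had the lowest number of reads of the 6 libraries compared (34743304). A correction for GC content and exon length moved Dusp5 to -0.10, Spred1 to 0.03 and Dusp2 to 0.11.

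Set directly against SFRP2 siRNA, RAB6A siRNA changed 5 of the 9 genes. In this comparison 37.6% of 12764 genes were higher and 35.8% lower at an adjusted p under 0.05. Dusp1 (log2 fold change 1.81), Dusp10 (1.65) and Dusp5 (0.73) were higher, and Dusp6 (-0.97) and Spred1 (-0.76) lower, with limma adjusted p-values from 3.3e-06 to 2.8e-04. Of these, Dusp1 and Dusp10 were also past an absolute log2 fold change of 1, as were 17.8% of all genes in the higher direction and 13.3% in the lower. Both comparisons use the same RAB6A siRNA libraries, so that their values are given side by side and not as repeats.

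Dusp2 did not pass against SFRP2 siRNA (-0.41, limma adjusted p = 0.11). It passed with voom on the recovered reads (-0.42, adjusted p = 0.0446), and without the third SFRP2 siRNA library its value was -0.65 (adjusted p = 0.00181). After the correction for GC content and exon length, all 9 genes passed in this comparison, 5 higher and 4 lower, with Dusp2 at -0.78, Dusp4 at -0.35, Dusp16 at 0.18 and Map3k8 at 0.49. Over all genes, 9255 of 12576 passed under this correction, 4524 higher and 4731 lower. With the replicate number as a block beside this correction, 8 of the 9 genes passed, 4 in each direction, and 9148 of all genes.

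Levels of the 9 genes spanned a wide range. In NC the order was Dusp4, Dusp5, Spred1, Dusp6, Dusp1, Dusp16, Dusp2, Map3k8 and Dusp10, from 50.7 to 2.88 FPKM on average, and the libraries of Dusp4 and Dusp5, of Dusp6, Dusp1 and Dusp16 in turn, and of Map3k8 and Dusp10 overlapped. In RAB6A siRNA the order was Dusp5, Dusp4, Dusp1, Spred1, Dusp16, Dusp10, Dusp2, Dusp6 and Map3k8, from 64.1 to 3.09 FPKM, where only Dusp10 and Dusp2 overlapped as neighbours. Dusp1 thus moved from the fifth to the third place and Dusp6 from the fourth to the eighth. With SFRP2 siRNA, Spred1 stood above Dusp5 and Dusp1 below Dusp16, with overlapping libraries in both pairs.

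Summed over the 7 phosphatases, the level was 144.0 ± 2.79 FPKM in NC, 137.0 ± 10.6 in SFRP2 siRNA and 179.0 ± 3.36 in RAB6A siRNA (SD, n = 3). The FPKM of all genes also summed higher in RAB6A siRNA (399883 to 410877) than in NC (361817 to 372307) or SFRP2 siRNA (362869 to 373756). How far this enters the sum of the phosphatases was not tested. Dusp1 made up 6.95%, 8.89% and 9.11% of this sum in NC, 6.64%, 8.03% and 7.51% in SFRP2 siRNA and 21.2%, 18.8% and 19.7% in RAB6A siRNA. Dusp6 took 8.84% ± 0.448 in NC and 3.21% ± 0.145 in RAB6A siRNA, while Dusp4 took 35.2% ± 2.16 and 27.0% ± 1.2. The share of Dusp4 fell beside the rise of other members, since its own level was 50.7 FPKM in NC and 48.3 in RAB6A siRNA.

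**Figure D3:**
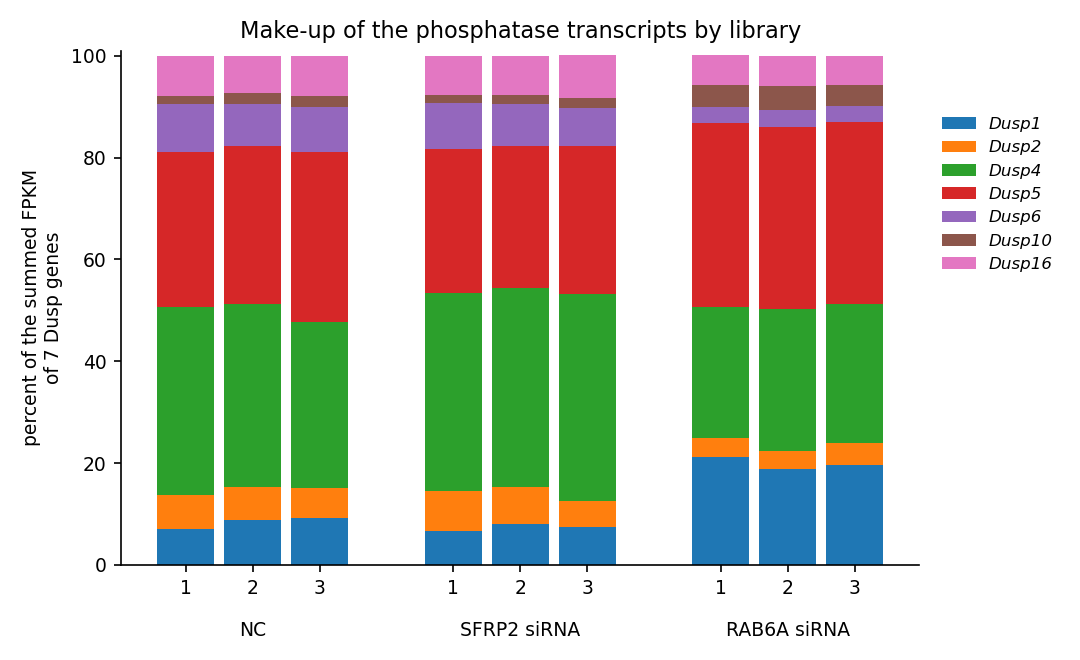
Percent of the summed FPKM of the 7 phosphatase genes (y axis) that each gene held in each library (x axis, replicates 1 to 3 of each group). In RAB6A siRNA the Dusp1 part is 18.8% to 21.2% and the Dusp6 part 3.05% to 3.33%, against 6.95% to 9.11% and 8.36% to 9.24% in NC.

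Other genes of the pathway were counted in lists written from general knowledge. Of all 12712 genes tested in RAB6A siRNA against NC, 37.6% were higher and 36.5% lower, with a median log2 fold change of 0.03. The counts in each of these lists, and in the marker lists further below, stand beside those shares and were not tested as sets. In RAB6A siRNA against NC, 3 other MAP kinase phosphatases entered the test. Styx, a catalytically inactive relative, rose from 0.502 to 1.18 FPKM and Dusp7 did not pass. Dusp8 was at 0.317 FPKM in NC and 1.19 in RAB6A siRNA and entered only through the group where it was high, and it is not counted. A list of 12 genes held atypical dual-specificity phosphatases, which lack the MAP kinase binding domain, together with the slingshot phosphatases Ssh1, Ssh2 and Ssh3. Of these 12 genes, 6 rose and 5 fell. Dusp14 rose most (4.5 to 16.4 FPKM, log2 fold change 1.84) and Dusp28 fell most (-1.41). The 6 that rose include Ssh3 (1.08), Ssh1 (0.71) and Ssh2 (0.28). The median log2 fold change of this list was 0.3, against 0.03 over all genes. It includes the slingshot genes, and a median without them was not taken. This median and the 5 that fell include Dusp12, at 0.867 FPKM in NC and 0.424 in RAB6A siRNA, which entered only through the group where it was high.

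The relatives of Spred1 moved in both directions. Spred3 rose from 3.53 ± 0.276 FPKM in NC to 14.0 ± 0.631 in RAB6A siRNA (log2 fold change 1.96, limma adjusted p = 1.6e-06), and Spry4, another inhibitor of RAS signaling, rose by 0.94. Spred2 fell from 13.8 ± 0.405 to 5.91 ± 0.602 FPKM (log2 fold change -1.21, limma adjusted p = 1.1e-05), the same direction as Spred1. These were the 3 genes of that list past the filter, with a median of 0.94.

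Among the substrates of the phosphatases, 3 of 9 MAP kinases rose and 2 fell, with a median of -0.03. Mapk3 (ERK1) rose from 38.5 ± 2.07 to 90.9 ± 4.5 FPKM (log2 fold change 1.24). For JNK, Mapk9 rose by a log2 fold change of 0.72 and Mapk8 fell by 0.85. Mapk6 rose by 0.18. Thus the JNK paralogs changed in opposite directions. Of 6 MAP2 kinases 0 rose and 2 fell, Map2k1 (MEK1, the substrate of Map3k8) at -0.47 and Map2k4 at -0.21, and the median was -0.11.

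In a list of MAP3 and RAF kinases that also holds Tab1, Tab2 and Tab3, the adaptors of TAK1, 10 of 16 genes rose and 2 fell (median 0.45), with Map3k5 (1.32), Map3k14 (1.1) and Map3k1 (0.98) rising most. The 2 that fell were the adaptors Tab2 (-0.63) and Tab3 (-0.33). Around Map3k8, 3 of 8 partners and activators rose and 3 fell (median -0.02). Tnip2, which stabilizes TPL2, rose from 11.9 ± 0.492 to 23.8 ± 0.724 FPKM, and Nfkb1, whose p105 product holds TPL2 inactive, fell from 22.4 ± 0.593 to 14.7 ± 0.527. Ikbkg (0.34) and Chuk (0.29) rose, and Traf6 (-0.56) and Map2k1, which is on this list too, fell. Map3k8 itself stayed at 2.92 FPKM in NC and 3.09 in RAB6A siRNA, a difference that did not pass.

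On the RAS axis, 7 of 15 genes rose and 7 fell (median -0.09). Rras rose from 5.77 ± 0.212 to 33.3 ± 3.0 FPKM, and Nf1, the neurofibromin that Spred1 recruits, from 2.78 ± 0.239 to 5.58 ± 0.531. Ptpn11 (SHP2, -1.06), Hras (-0.72) and Rasa1 (-0.72) fell. Of 7 kinases activated by MAP kinases, 3 rose (Mknk2 at 1.17, Rps6ka5 at 0.67 and Mknk1 at 0.53) and 2 fell (Rps6ka2 at -1.13 and Rps6ka1 at -0.41), with a median of 0.07.

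Genes whose transcription follows ERK activity did not share a direction. Of 16 such genes, 6 rose and 7 fell (median -0.07). The list includes Dusp4, Dusp5, Dusp6 and Spry4. Myc fell from 92.1 ± 1.08 to 6.08 ± 0.286 FPKM (log2 fold change -3.9), and Egr2, which was under 0.5 FPKM in RAB6A siRNA, fell by 1.35. Etv4 rose by 1.59, and Egr1 rose from 29.6 ± 0.706 to 63.7 ± 23.1 FPKM (1.05, limma adjusted p = 0.00284), with a wide spread between the RAB6A siRNA libraries. In SFRP2 siRNA against NC, 0 genes of any of these lists passed an adjusted p under 0.05 with limma.

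**Figure D4:**
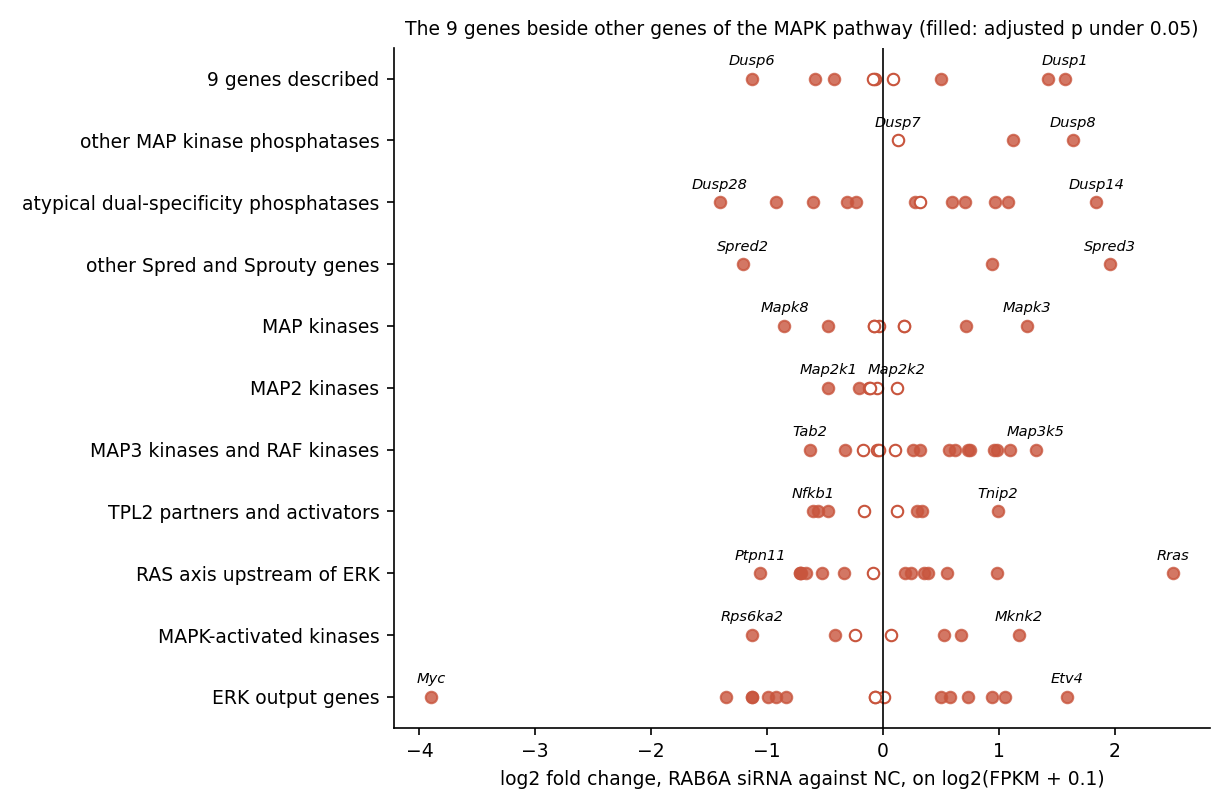
Log2 fold change of RAB6A siRNA against NC (x axis, on log2(FPKM + 0.1)) for the 9 genes and for the genes of 10 pathway lists past the filter (rows); each point is a gene, filled where the adjusted p is under 0.05, with the extremes named. The row of atypical dual-specificity phosphatases also holds the slingshot genes Ssh1, Ssh2 and Ssh3. Points lie on both sides of 0 in every row but that of the other MAP kinase phosphatases, and 3 genes of the top row are open. The row of other MAP kinase phosphatases has only 3 points, Dusp7 (open), Styx and Dusp8, and Dusp8 passed the filter only through RAB6A siRNA. Dusp8, Dusp12 and Egr2 are drawn although each was under 0.5 FPKM in NC or in RAB6A siRNA.

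Markers of the cells moved as well in the RAB6A siRNA libraries. Of 9 macrophage markers tested, 1 rose (Ptprc, 0.17) and 4 fell, Lyz2 (-2.03), Csf1r (-1.44) and Spi1 (-1.05) most. Of 12 LPS response genes, 4 rose and 6 fell, with Ccl5 (3.28), Ptgs2 (0.68) and Cd40 (0.34) highest and Il10 (-2.7), Acod1 (-1.98) and Cxcl10 (-1.14) lowest. Il10 was at 3.62 FPKM in NC and 0.488 in RAB6A siRNA, and it entered the test only through NC. Among markers of other cell types, Pecam1 was at 0.475 FPKM in NC and 0.83 in RAB6A siRNA and S100a8 at 0.896 and 0.135, and each entered the test only through the group where it was high. Their part in the changes of the 9 genes was not tested. A smaller share of cells with a transcript and less of it per cell cannot be told apart in these bulk libraries.

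The gene whose pattern over the 9 libraries was most like that of each member was sought among 12549 genes, as the root mean square difference of log2(FPKM + 0.1) after the NC mean was taken off each. For Dusp1 it was C1qtnf6 (0.0706), for Dusp2 Hmgn1 (0.12), for Dusp4 Rnf11 (0.0309), for Dusp5 Myo1g (0.0349) and for Dusp6 Zc3h12a (0.0768). Zc3h12a, which encodes the RNase Regnase-1, held 31.0 FPKM in NC, 28.3 in SFRP2 siRNA and 14.8 in RAB6A siRNA. For Dusp10 it was the processed pseudogene Gm15772 (0.0779), for Dusp16 Ogdh (0.0293), for Spred1 Cbx5 (0.0297) and for Map3k8 Top3b (0.0641). Within a difference of 0.2 stood 111 genes for Dusp1, 190 for Dusp2 and 218 for Dusp10, but 2173 for Dusp4 and 2492 for Dusp16, whose levels moved little.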

How the data were processed

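mRNA libraries of the 9 samples were sequenced as paired ends. The authors deposited FPKM per Ensembl gene, and the labels name HISAT2, featureCounts and Subread, without versions. The genome build and the use of strand are not given in the sources used here. Symbols, exon lengths and GC content came from GENCODE M21 (GRCm38), which named 27533 of 28137 rows. FPKM times exon length gave whole reads (within 0.03 of a read) in all 9 libraries for 98.7% of named genes. These reads served for depth and for voom.

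The methods of the study name a count model. The deposited values are FPKM, so that the main test was limma 3.58.1 in R 4.3.3 (lmFit, eBayes with trend) on log2(FPKM + 0.1), with voom on the reads as an alternative. Genes with a mean of at least 0.5 FPKM over the 6 libraries of a comparison entered, with Benjamini-Hochberg adjustment over all of them. Fold changes are on this log2 scale, which understates low genes. Of 92 pathway genes tested in RAB6A siRNA against NC, 3 were under 0.5 FPKM in one group. Genes under the filter were compared by an exact two-sided permutation test. The scripts were tested on simulated data. Python 3.11.15, numpy 2.4.6, pandas 2.3.3, scipy 1.17.1 and matplotlib 3.10.9 did the rest.

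The members and the lists were chosen with earlier results of these data known. Genes named were the 9 members, Sfrp2, Rab6a, up to 3 genes with the largest rise and up to 3 with the largest fall per list among those called in RAB6A siRNA against NC, and the gene of nearest pattern for each member. Of the list genes under this rule, 2 are not reported here. Promoters came from RefSeq (GRCm38.p6). Alternatives were 2 other pseudocounts, no filter or a mean of at least 1 FPKM, quantile normalization, scaling by the median of ratios, a flat prior variance (eBayes without trend), all 9 libraries in one fit, the replicate block, a GC and length correction (natural splines with 5 degrees of freedom) with and without the block, voom and each library left out.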

Additional observations from a re-analysis of the deposited data

How the results depend on the processing

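Of 486 alternative values of the members' log2 fold changes, 466 did not turn sign and kept their side of the threshold. Values that rounded to 0 were counted as not turned. With SFRP2 siRNA against NC, voom on the recovered reads called 42 genes (35 lower) where limma called 0, and leaving out a library gave 0 to 1, the 1 without the first NC library. No member was called there under any alternative. With RAB6A siRNA against NC, 6 members were called whichever library was left out, and 7 after the GC and length correction, which added Map3k8 (0.32, adjusted p = 0.0497), a call lost with the replicate block beside it (adjusted p = 0.0873, 6 members called). Over all genes, the GC and length correction called 9377 of 12535 in that comparison. Against SFRP2 siRNA, 5 to 6 members were called when a library was left out, 6 with voom, which added Dusp2, 9 after the GC and length correction and 8 with the replicate block as well. The correction called 9255 of all 12576 genes there.

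The sign turned for Dusp2 in SFRP2 siRNA against NC (0.11 after the GC and length correction, with or without the block, and -0.18 to 0.23 when a library was left out), for Dusp4 (0.09) and Map3k8 (-0.02) in RAB6A siRNA against NC with quantile normalization, and for Dusp16 after the GC and length correction, with or without the block (0.08 against NC and 0.18 against SFRP2 siRNA). The cause was not tested. The replicate block alone left 0, 6 and 5 members called. The labels give same-numbered libraries only a shared number, and their deviations from the group means did not go together (mean correlation -0.0103, against 0.00506 for other pairs). Each member had at least 246 reads in every library.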
